A study of Mus musculus with 18 samples.

Results

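Liver RNA of diet-induced obese (DIO) mice given PaPE-1 was set against that of DIO mice given estradiol (E2). The comparison has 3 PaPE-1 libraries, WP11, WP12 and WP24, and 3 E2 libraries, WE3, WE14 and WE18, which are 6 of the 18 libraries of the series. They were chosen by the model and treatment in the sample records, and every gene that passed a filter on low counts was tested, 13884 of the 40840 genes in the count table. All mice of the comparison were ovariectomized wild-type C57BL/6 females on a high-fat diet with added cholesterol, so the livers had no ovarian estrogen of their own, and the ligands were released from a minipump for 6 weeks. PaPE-1 was given at 300 µg per kg per day, E2 at 5 µg per kg per day, and the 3 vehicle mice (WV7, WV8 and WV9) received the DMSO, ethanol and saline carrier. Since the doses differ, compound and dose cannot be told apart, and the values below are those of 1 dose of each. The ob/ob libraries enter the last comparison. They are from ovariectomized leptin-deficient females given the same treatments, but on a normal diet in place of the high-fat diet.

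E2 acts through the estrogen receptors, of which estrogen receptor alpha is the main form in hepatocytes. A nuclear pool of the receptor binds DNA at estrogen response elements and controls transcription directly, whereas receptor outside the nucleus starts kinase signalling. PaPE-1 (Pathway Preferential Estrogen 1) is a synthetic ligand of the receptor with lower affinity than E2, designed to favour the extranuclear pathway. Mouse liver is also a tissue in which males and females express different cytochromes P450, sulfotransferases and urinary proteins, under the control of the pattern of growth hormone release and of the transcription factors STAT5, BCL6 and CUX2.

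Total counts of the 9 DIO libraries lay between 16651616 and 21703791. The 20 hepatocyte markers were tested in full and summed to 170022 to 204116 CPM with PaPE-1, 156004 to 191429 CPM with E2 and 131290 to 147268 CPM with vehicle, where CPM is the count divided by the TMM-scaled library size in units of 1000000 reads. Of 14 pancreatic acinar markers, 10 had 0 counts in every DIO library, and the list summed to 9.37 to 12.3 CPM with PaPE-1, 6.56 to 7.30 CPM with E2 and 6.42 to 7.90 CPM with vehicle. The libraries were whole liver, in which fewer cells of a type and less RNA per cell cannot be told apart. WE14 stood apart from the other E2 libraries. Its root mean square log2 distance was 0.375 to the vehicle mean and 0.531 to the mean of WE3 and WE18. WE3 and WP12 also lay nearer to the vehicle mean than to the rest of their group, by a smaller margin (0.486 against 0.512, and 0.421 against 0.432).

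In edgeR's quasi-likelihood test 5 genes (0.036% of those tested) passed an adjusted p of 0.05. With PaPE-1, 3 of them were higher than with E2 (0.0216%) and 2 were lower (0.0144%). The higher genes were Sult2a7, which encodes a cytosolic sulfotransferase of the family that sulfates steroids and bile acids, Cyp2c50, a cytochrome P450 of the 2C family, and Prox1os, a noncoding RNA transcribed opposite the hepatocyte transcription factor gene Prox1. The lower genes were Dct, which encodes the melanin enzyme dopachrome tautomerase, and Mki67, whose product Ki-67 marks dividing cells. A fold change of more than 2 together with an unadjusted p below 0.05 was met by 104 genes in the direction of PaPE-1 (0.749%) and 208 in that of E2 (1.5%). By the unadjusted p alone 1168 genes were higher (8.41%) and 1197 lower (8.62%), and the 3 PaPE-1 libraries lay entirely above the 3 E2 libraries in 1375 genes (9.9%) and entirely below in 1148 (8.27%).

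**Figure D1:**
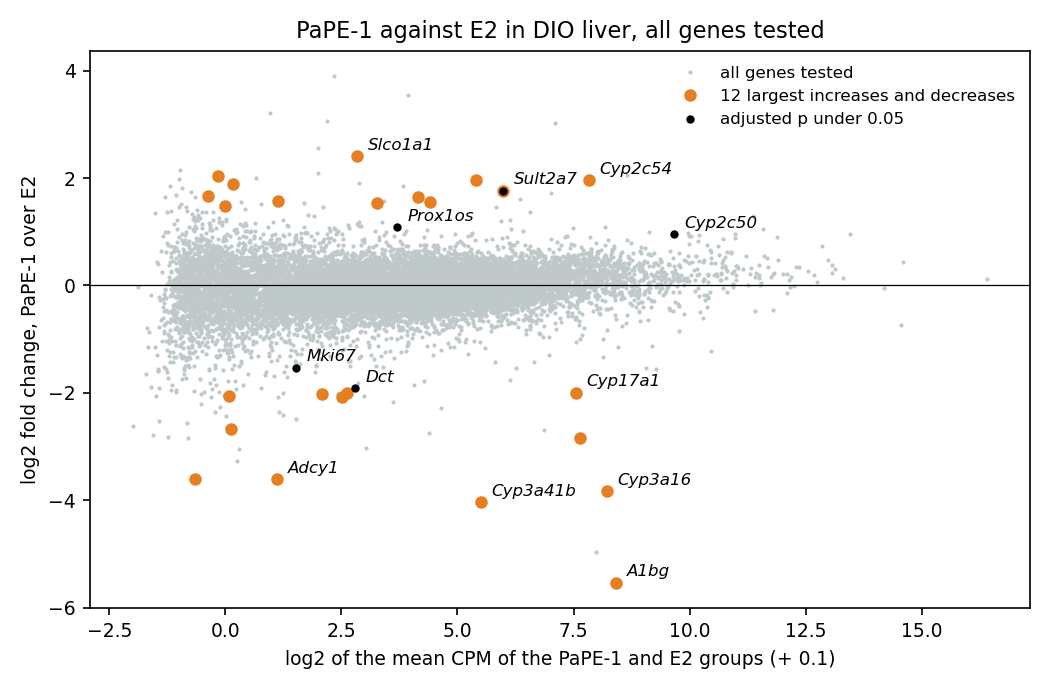
Log2 fold change of PaPE-1 over E2 in DIO liver (vertical axis) against the log2 of the mean CPM of both groups plus 0.1 (horizontal axis), with a point for each of the 13884 genes tested. Orange points are the 12 largest increases and 12 largest decreases among named genes with an unadjusted p under 0.01 and groups that do not overlap, and black points the 5 genes past an adjusted p of 0.05, which lie between -1.92 and 1.76. Of these 5, Sult2a7 is also among the 12 largest increases.

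Sult2a7 (chromosome 7, 14198976 to 14226948 in GRCm39) had 104, 96.4 and 92.6 CPM in the PaPE-1 libraries, against 21.1, 32.8 and 32.3 CPM in the E2 libraries and 28.3, 42.7 and 48.9 CPM in the vehicle libraries. Every PaPE-1 liver was above every E2 and every vehicle liver, and the E2 and vehicle livers overlapped. The log2 fold change of PaPE-1 over E2 was 1.76 (SE 0.21, 95% interval 1.30 to 2.22, adjusted p = 0.0292 in edgeR), and PaPE-1 over vehicle stood at 1.29 (SE 0.21). Its neighbour on the chromosome, Sult2a8, a bile acid sulfotransferase of mouse liver, had 438, 579 and 778 CPM with PaPE-1 and 443, 331 and 400.1 CPM with E2, at 0.61 (SE 0.22) with an adjusted p of 0.211 in edgeR, and its groups overlapped. None of the 842 stretches of 101 bases (the length of a read) in the longest coding Sult2a7 transcript occurs in a transcript of another gene in the GENCODE vM21 set.

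Cyp2c50 (chromosome 19, 40078123 to 40102399) had 1137, 927 and 1151 CPM with PaPE-1, against 563, 548 and 543 CPM with E2 and 723, 736 and 789 CPM with vehicle. No groups overlapped, with the PaPE-1 livers highest, the E2 livers lowest and the vehicle livers between them. The log2 fold change over E2 was 0.96 (SE 0.14, 95% interval 0.66 to 1.26, adjusted p = 0.0325 in edgeR). Of its 1712 stretches of 101 bases, 157 (9.17%) also occur in transcripts of Cyp2c54 or Cyp2c37, and reads that fit several places were not counted. Cyp2c54, which lies next to it, had 391, 214 and 480.3 CPM with PaPE-1, against 138, 53.4 and 86.9 CPM with E2 and 81.3, 156 and 124 CPM with vehicle. Each PaPE-1 liver was above each E2 and vehicle liver, but WE3 and WE14 differed from each other by more than 2-fold, and the difference of 1.96 (SE 0.42) had an adjusted p of 0.175 in edgeR.

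Prox1os (chromosome 1, 189902493 to 189949476) had 17.7, 15.4 and 19.3 CPM with PaPE-1, 8.09, 8.92 and 7.56 CPM with E2 and 9.05, 10.04 and 8.19 CPM with vehicle. The PaPE-1 livers were above all others, and the E2 and vehicle livers overlapped. The log2 fold change over E2 was 1.09 (SE 0.16, 95% interval 0.75 to 1.43, adjusted p = 0.0325 in edgeR). Reads were counted by strand. Prox1 itself, named here after its values were seen, had 99.0, 91.9 and 96.6 CPM with PaPE-1, 230.3, 63.6 and 98.6 CPM with E2 and 107, 112 and 97.3 CPM with vehicle, with no separation between groups and WE3 alone above the rest.

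Dct (chromosome 14, 118250202 to 118289658) had 2.33, 2.72 and 3.58 CPM with PaPE-1, against 12.8, 6.97 and 12.9 CPM with E2 and 3.49, 3.80 and 4.02 CPM with vehicle. All E2 livers were above all others, with WE14 the lowest of them, and the PaPE-1 and vehicle livers overlapped. The log2 fold change over E2 was -1.92 (SE 0.26, 95% interval -2.48 to -1.36, adjusted p = 0.0325 in edgeR), and E2 over vehicle stood at 1.52 (SE 0.25). The list of 10 melanin synthesis genes had 3 members with enough counts to test. Of the other 2, the receptor tyrosine kinase gene Kit stood at -0.51 (SE 0.32) and the melanocyte transcription factor gene Mitf at -0.13 (SE 0.23), with overlapping groups for both.

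Mki67 (chromosome 7, 135291513 to 135318286) had 1.55, 1.36 and 1.35 CPM with PaPE-1, against 4.07, 4.53 and 3.75 CPM with E2 and 3.59, 3.06 and 3.88 CPM with vehicle. Here the PaPE-1 livers were below all others, and the E2 and vehicle livers overlapped. The log2 fold change over E2 was -1.53 (SE 0.22, 95% interval -2.01 to -1.06, adjusted p = 0.0325 in edgeR). The level was low, with 26, 28 and 20 read counts in WP11, WP12 and WP24.

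**Figure D2:**
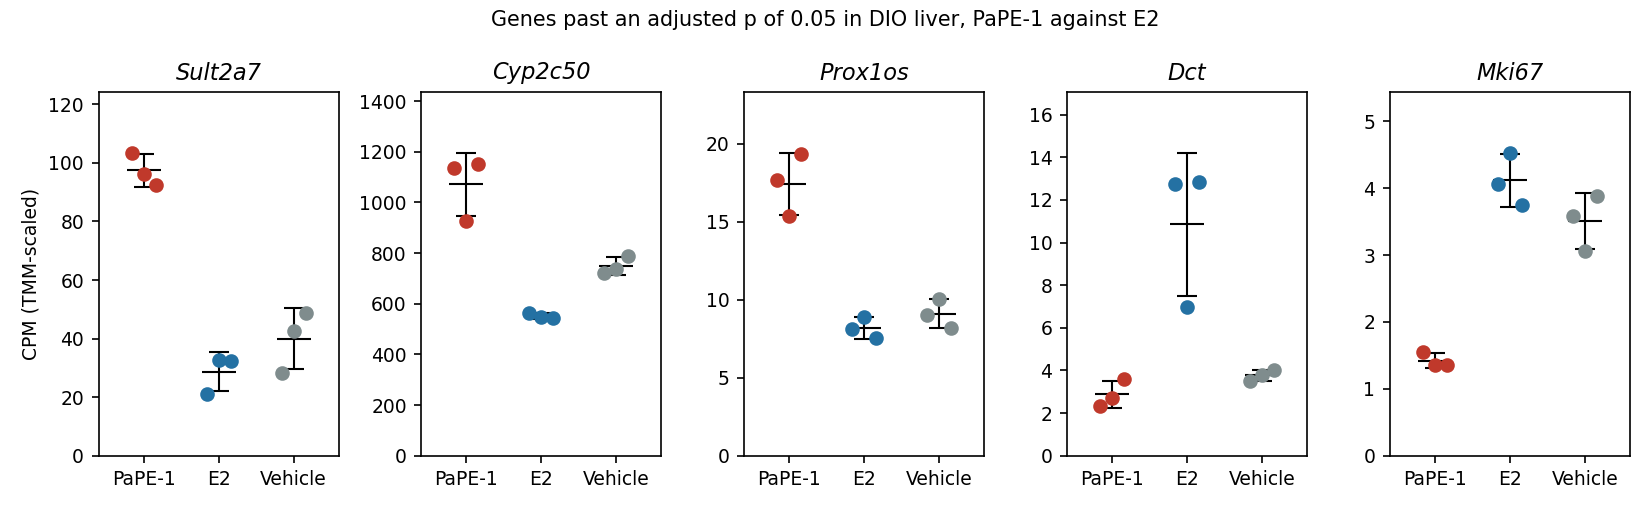
CPM (vertical axis, each panel from 0) of the 5 genes past an adjusted p of 0.05 in the PaPE-1, E2 and vehicle livers (horizontal axis), with a point for each library and black bars for the group mean and SD (n = 3). PaPE-1 livers are above all others for Sult2a7, Cyp2c50 and Prox1os and below all others for Mki67, whereas for Dct the E2 livers lie above the rest.

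The promoters of 3 of these 5 genes were matched by symbol to the RefSeq promoter table of GRCm38.p6 and searched on both strands, over the 250 bases before the start, for the estrogen response element (GGTCANNNTGACC), its half-site (GGTCA, which each full element also holds), the STAT5 motif (TTCNNNGAA) and the AP-1 motif (TGANTCA). Of 32851 promoters in the table, 0.0639% held the full element, 35.2% the half-site, 7.02% the STAT5 motif and 6.75% the AP-1 motif. Dct and Cyp2c50 each held 1 half-site, 153 and 209 bases before the start, and Mki67 held none of the 4 motifs in this window. A1bg, the gene with the largest negative difference, held 1 half-site and 1 STAT5 motif, 58 and 84 bases before the start. Over the 20 genes with a promoter among those called or with the largest changes, 10 held a half-site, 1 the STAT5 motif, 1 the AP-1 motif (Dhrs9) and 0 the full element. The other half-sites were in Adcy1, Tpm2, Ccl22, Slc6a16, Dhrs9, Slco1a1 and Amer2. The windows of Dct and Cyp2c50, which passed the test, and of A1bg, which did not but had the largest negative difference, are printed 5′ to 3′ on the gene's strand with the matched motifs in capitals.
Dct, chr14:118052247-118052496, minus strand: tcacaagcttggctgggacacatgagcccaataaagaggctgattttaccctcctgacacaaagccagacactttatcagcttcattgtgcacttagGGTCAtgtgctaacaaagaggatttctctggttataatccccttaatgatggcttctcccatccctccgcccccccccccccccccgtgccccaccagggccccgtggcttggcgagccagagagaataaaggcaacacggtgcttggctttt
Cyp2c50, chr19:40089429-40089678, plus strand: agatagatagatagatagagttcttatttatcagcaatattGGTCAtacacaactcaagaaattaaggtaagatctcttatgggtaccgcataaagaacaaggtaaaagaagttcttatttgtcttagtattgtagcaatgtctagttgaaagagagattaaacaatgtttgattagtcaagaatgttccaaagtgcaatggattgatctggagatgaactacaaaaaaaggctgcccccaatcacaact
A1bg, chr15:60921271-60921520, minus strand: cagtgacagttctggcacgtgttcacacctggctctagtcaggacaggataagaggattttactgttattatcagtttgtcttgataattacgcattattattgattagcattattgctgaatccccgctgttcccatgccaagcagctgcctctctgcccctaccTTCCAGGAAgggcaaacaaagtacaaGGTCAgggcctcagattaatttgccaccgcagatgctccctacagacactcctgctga
In A1bg the STAT5 match comes first and the half-site after it. These are matches of letters, not sites shown to bind a factor.

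How many genes passed depended on single livers. Without the E2 library WE14, 361 genes were higher (2.56% of 14124 tested) and 435 lower (3.08%) at an adjusted p under 0.05 in edgeR. All 5 genes above were among them. WE14 was singled out by its distance in these same data. Counts and adjusted p without it, here and below, show this dependence and are not separate support. Without WE3, WE18, WP11 or WP24 no gene passed in edgeR's test, with 652 to 1038 higher and 620 to 1027 lower by the unadjusted p. Without WP12 the single call was Phlda1, at 1.51 (adjusted p = 0.0184 in edgeR), a gene named only for this. Without the vehicle library WV7, edgeR called 1 higher and 2 lower genes, without WV8 1 and 1, and without WV9 1 and 0, and the higher gene was Sult2a7 each time. In the fits that left out 1 library or changed 1 setting, 17 in all, Sult2a7 kept a log2 fold change between 1.55 and 1.87 and passed in 11, whereas Cyp2c50 (0.91 to 1.05), Prox1os (0.80 to 1.17), Dct (-2.16 to -1.77) and Mki67 (-1.60 to -1.32) passed in 6 each.

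The 12 largest decreases among genes with an unadjusted p under 0.01 and groups that did not overlap were led by genes that differ between the sexes in mouse liver. A1bg, which encodes a plasma glycoprotein and is female-biased in mice, had 8.72, 14.2 and 20.6 CPM with PaPE-1, against 1204, 65.3 and 742 CPM with E2 and 70.9, 40.4 and 77.5 CPM with vehicle. WE3 and WE18 were far above every other liver, whereas WE14 lay among the vehicle livers. The log2 fold change was -5.53 (SE 1.08) over all 3 E2 livers (adjusted p = 0.175 in edgeR) and -6.07 without WE14 (adjusted p = 0.000878). None of its 1721 stretches of 101 bases occurs in another gene.

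The cytochromes P450 Cyp3a41b, Cyp3a16 and Cyp3a41a followed the same pattern over the E2 livers. Cyp3a16 had 54.2, 16.7 and 46.4 CPM with PaPE-1, 789, 62.2 and 813 CPM with E2 and 44.9, 37.1 and 89.7 CPM with vehicle. Its log2 fold change was -3.83 (SE 1.02) with WE14 and -4.36 without it, where edgeR gave an adjusted p of 0.0178. Cyp3a41b had 5.73, 3.35 and 6.62 CPM with PaPE-1 and 147, 12.8 and 94.8 CPM with E2, a difference of -4.03 (SE 0.91), and Cyp3a41a stood at -2.85 (SE 0.74). These last values are uncertain, since 88.1% of the 101-base stretches of the Cyp3a41b transcript also occur in Cyp3a41a and 90.6% of those of Cyp3a41a occur in Cyp3a41b or Cyp3a44.

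Cyp17a1, the 17-alpha-hydroxylase of steroid synthesis, did not share this pattern. It had 69.2, 99.9 and 55.0 CPM with PaPE-1, against 286, 291 and 317 CPM with E2 and 171, 68.9 and 113 CPM with vehicle. The 3 E2 livers, WE14 included, were close together and above all others, and the difference of -1.99 (SE 0.31) missed the threshold (adjusted p = 0.0989 in edgeR). It passed without WE14 (0.0261) and without the vehicle library WV7 or WV8 (0.0255 and 0.0299). Of the other large decreases, the adenylate cyclase gene Adcy1 stood at -3.61 (SE 0.70) with 0.418, 0.292 and 0.203 CPM under PaPE-1 and 1.67, 5.58 and 4.21 CPM under E2. The retinol dehydrogenase gene Dhrs9 stood at -2.67 (SE 0.73). It was at a low level, with 0.239, 0.340 and 0.203 CPM under PaPE-1, 3.62, 1.05 and 0.463 CPM under E2 and 1.48, 1.79 and 2.71 CPM under vehicle. WE3 was far above WE18, which lay close to the PaPE-1 livers. Gdap10 (-3.61), the syntabulin gene Sybu (-2.08), Gfra2 (-2.05), which encodes a receptor for neurturin, Sytl5 (-2.02) and the interferon-inducible GTPase gene Gbp2b (-1.99) complete the 12. Gdap10 had 0.119, 0.0972 and 0 CPM with PaPE-1 and 1.49, 0.429 and 1.08 CPM with E2 (SE 0.79). Gfra2 had 0.239, 0.340 and 0.540 CPM with PaPE-1 and 1.90, 1.34 and 1.39 CPM with E2 (SE 0.40). Both are low levels, at which counting error is large.

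Among the 12 largest increases, Slco1a1, an organic anion transporter of male-biased expression, had 13.8, 4.42 and 17.4 CPM with PaPE-1, against 3.71, 0.811 and 2.11 CPM with E2 and 2.25, 3.97 and 1.55 CPM with vehicle. Each PaPE-1 liver was above each E2 liver, WP12 by the smallest margin, and the difference was 2.41 (SE 0.65, adjusted p = 0.184 in edgeR). Cyp2d9, a male-biased steroid 16-alpha-hydroxylase of mouse liver, had 46.8, 96.4 and 59.1 CPM with PaPE-1 and 8.68, 29.6 and 13.6 CPM with E2, against 35.2, 51.6 and 48.7 CPM with vehicle. Its difference was 1.96 (SE 0.46), and 2.601 without WE14, the highest of the E2 livers (adjusted p = 0.00974 in edgeR). The tropomyosin gene Tpm2 had 28.0, 28.6 and 38.4 CPM with PaPE-1 and 6.65, 17.3 and 8.28 CPM with E2, a difference of 1.56 (SE 0.32) and, without WE14, 2.09 (adjusted p = 0.0009 in edgeR). The desmoglein gene Dsg1c stood at 1.65 (SE 0.37), with 21.8, 25.7 and 33.1 CPM under PaPE-1 and 4.84, 12.98 and 7.86 CPM under E2. At low levels, of up to 20.2 CPM in any library, were the chemokine gene Ccl22 (2.04), the T cell gene Themis (1.88), the urinary protein gene Mup1 (1.67), Slc6a16 (1.58), the noncoding RNA gene Dio3os (1.53) and Amer2 (1.48). Sult2a7 and Cyp2c54 were the other members of the 12.

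**Figure D3:**
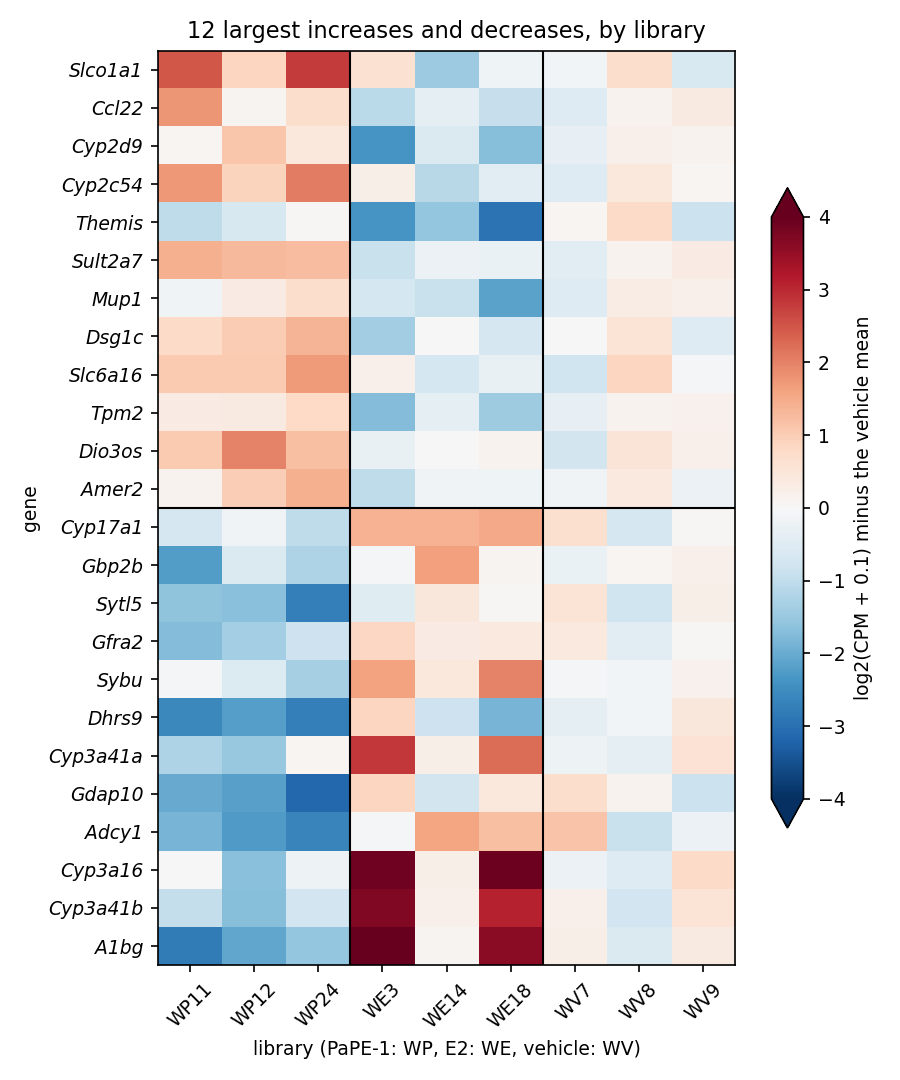
Log2 of CPM plus 0.1 minus the vehicle mean (colour, red above and blue below) for the 12 largest increases (upper rows) and 12 largest decreases (lower rows), by library from PaPE-1 through E2 to vehicle (columns). WE3 and WE18 are dark red for A1bg, Cyp3a16, Cyp3a41b and Cyp3a41a, for which WE14 has the colour of the vehicle livers, whereas Cyp17a1 is red in all 3 E2 livers.

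Sex-biased genes were then described as whole lists. For these and the lists below, 8.41% of all genes tested were higher and 8.62% lower by the unadjusted p. Groups did not overlap in 9.9% of all genes (higher) and 8.27% (lower). Of 38 female-biased genes tested, 25 were below 0 and 13 above, with a median log2 fold change of -0.47 against -0.02 over all genes tested, and 14 were lower and 5 higher by the unadjusted p (below 0.05). Of 34 male-biased genes tested, 26 were above 0, with a median of 0.53, and 14 were higher and 2 lower by the unadjusted p. Mean log2 levels of the female-biased list, set against the vehicle mean, were 0.18, 0.03 and 0.10 in the PaPE-1 livers and 0.89, 0.24 and 1.002 in WE3, WE14 and WE18. The E2 livers were above the PaPE-1 livers, WE14 by little. The male-biased list stood at 0.06, 0.31 and 0.70 with PaPE-1 and -0.39, -0.23 and -0.45 with E2, and here the groups did not overlap. Without WE14, 11 female-biased genes were lower and 4 higher at an adjusted p under 0.05 in edgeR. Of the male-biased genes 5 were higher and 1 lower. Over all genes the shares without WE14 were 2.56% higher and 3.08% lower.

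Both directions occurred among the named members. Mup3, a major urinary protein that is male-biased, had 3443, 3716 and 4136 CPM with PaPE-1, against 1191, 2154 and 1239 CPM with E2 and 1813, 2608 and 2154 CPM with vehicle, so that WE14 again lay at the level of the vehicle livers. Its difference was 1.30 (SE 0.23, adjusted p = 0.105 in edgeR) and 1.63 without WE14 (0.00156). The complement gene C8b had 70.1, 64.0 and 122 CPM with PaPE-1 and 44.8, 31.0 and 35.4 CPM with E2, a difference of 1.20 (SE 0.27). Prom1, the female-biased gene of the membrane protein prominin 1, had 7.76, 6.42 and 6.48 CPM with PaPE-1, 15.7, 19.7 and 12.95 CPM with E2 and 17.95, 10.3 and 19.4 CPM with vehicle, so the PaPE-1 livers were below both other groups (-1.23, SE 0.24). Sult2a7, which the list counts as female-biased, was higher with PaPE-1, against the direction of the list's median.

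Cytochromes P450 outside the 2C family were more often above 0 than below. Of 50 tested, 17 were higher (34%) and 7 lower (14%) by the unadjusted p (below 0.05), and 0 passed the adjusted threshold in edgeR. Cyp2e1, the ethanol- and fatty acid-oxidizing P450 of pericentral hepatocytes, had 14311, 12397 and 17537 CPM with PaPE-1, against 7449, 7199 and 8280.4 CPM with E2 and 6576, 9639 and 8138 CPM with vehicle. The PaPE-1 livers were above all others, and the E2 livers lay within the range of vehicle, with a difference of 0.95 (SE 0.18, adjusted p = 0.142 in edgeR). Cyp2d10 stood at 0.72 (SE 0.16). Of 13 Cyp2c genes tested, 4 were higher (30.8%) and 3 lower (23.1%) by the unadjusted p, and the 3 lower ones are not named here. The median was 0.39, and 0.20 without WE14. Cyp2c67 was among the higher ones, with 163, 180.3 and 222 CPM under PaPE-1 and 88.8, 121 and 124 CPM under E2 (0.76, SE 0.16), as was the arachidonate epoxygenase gene Cyp2c23 (0.55, SE 0.20). Of 18 sulfotransferase genes tested, 2 were higher (11.1%, beside 8.41% of all genes) and 3 lower (16.7%, beside 8.62%). Sult1e1, the estrogen sulfotransferase, had 5.19, 4.86 and 3.04 CPM with PaPE-1, 20.1, 4.199 and 34.8 CPM with E2 and 5.74, 1.44 and 1.65 CPM with vehicle, and WE14 was the E2 liver that overlapped with the other groups (-2.16, SE 0.82). Sult3a2 stood at -1.996 (SE 0.54).

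The estrogen receptor alpha gene Esr1 had 40.1, 50.3 and 51.1 CPM with PaPE-1, against 81.0, 44.7 and 99.0 CPM with E2 and 46.5, 32.5 and 33.7 CPM with vehicle. WE3 and WE18 were above the PaPE-1 livers and WE14 was among them, and the difference of -0.67 (SE 0.26) had an adjusted p of 0.236 in edgeR, or -0.93 and 0.0226 without WE14. Esr2, the gene of estrogen receptor beta, had 0 counts in all 9 libraries, and the membrane estrogen receptor gene Gper1 had at most 2. Of 19 receptor and coregulator genes tested, 16 were below 0, and 4 were lower and 0 higher by the unadjusted p, with a median of -0.24. With the gene length trend described below removed, 1 was lower and 0 higher and the median was -0.06. The corepressor gene Nrip1 had 9.19, 10.5 and 9.46 CPM with PaPE-1 and 17.8, 11.2 and 16.4 CPM with E2 (-0.64, SE 0.19), and after removal of that trend its difference was -0.36. Of 24 genes known to respond to estrogen receptor alpha, 5 were higher and 5 lower (20.8% each, beside 8.41% and 8.62% of all genes). The cyclin D1 gene Ccnd1 had 89.2, 56.6 and 87.3 CPM with PaPE-1 and 166, 94.0 and 192 CPM with E2 (-0.95, SE 0.27), whereas the angiotensinogen gene Agt stood at 0.51 (SE 0.17).

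On the growth hormone axis, 2 of 19 genes (10.5%) were higher and 0 lower by the unadjusted p, a share near the 8.41% of all genes that were higher. Igfbp2, a binding protein of insulin-like growth factors, had 691, 598 and 932 CPM with PaPE-1, against 315, 401 and 391.6 CPM with E2 and 256, 368 and 400.3 CPM with vehicle. The PaPE-1 livers were above all others, with a difference of 1.003 (SE 0.21, adjusted p = 0.161 in edgeR). The male-biased gene Bcl6, which encodes a repressor, had 19.2, 35.8 and 11.1 CPM with PaPE-1 and 5.29, 9.93 and 3.24 CPM with E2, a difference of 1.84 (SE 0.56) whose groups did not overlap. The female-biased gene Cux2, which encodes a transcription factor, had 52.5, 73.6 and 34.4 CPM with PaPE-1, 119, 54.7 and 86.0 CPM with E2 and 33.4, 39.3 and 46.9 CPM with vehicle (-0.69, SE 0.32), and WE14 lay within the PaPE-1 range.

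Fatty acid oxidation genes lay almost all above 0. Of 34 genes tested, 33 were above 0, with a median of 0.40. By the unadjusted p (below 0.05) 17 were higher (50%, beside 8.41% of all genes) and 0 lower. In 14 (41.2%, beside 9.9%) all PaPE-1 livers lay above all E2 livers. No gene of the list passed the adjusted threshold with all libraries, and 9 did, all higher, in edgeR without WE14 (beside 2.56% of all genes). Cyp4a10, a fatty acid omega-hydroxylase controlled by PPAR alpha, had 948, 1238 and 1634.6 CPM with PaPE-1, against 726, 822 and 684 CPM with E2 and 836, 1042 and 1015 CPM with vehicle (0.78, SE 0.19). The related Cyp4a14 had 1210.4, 1253 and 1963 CPM with PaPE-1 and 836, 991 and 669 CPM with E2 (0.83, SE 0.21). The peroxisomal thiolase gene Acaa1a stood at 0.70 (SE 0.19) and the enoyl-CoA isomerase gene Eci2 at 0.62 (SE 0.18). Over the list the mean log2 levels were -0.02, 0.26 and 0.34 in the PaPE-1 livers and -0.48, 0.10 and -0.25 in the E2 livers, set against vehicle, so WP11 lay below WE14 and the groups overlapped.

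Lipid synthesis genes varied widely between the livers of each group. The median was -0.40 over 38 genes of fatty acid and triglyceride synthesis, with 2 lower (5.26%) and 1 higher (2.63%) by the unadjusted p. It was -0.77 over 25 genes of cholesterol synthesis, with 3 lower (12%) and 0 higher. Over all genes tested 8.62% were lower and 8.41% higher. Without WE14 these medians were -0.12 and -0.31. The mean log2 levels of the cholesterol list were -0.13, -0.14 and -1.04 with PaPE-1, -0.57, 0.86 and 0.41 with E2 and 0.73, -0.61 and -0.12 with vehicle, so WP24, WE3 and WV8 were low, WE14 and WV7 were high, and the groups overlapped. The fatty acid synthase gene Fasn had 1239.8, 1018 and 277 CPM with PaPE-1, 713, 2739.7 and 2489 CPM with E2 and 3845, 375 and 885 CPM with vehicle. The vehicle livers alone spanned a wider range than the difference between the ligands. Its difference was -1.23 with a 95% interval of -3.58 to 1.13, which leaves either direction, and Srebf1, the gene of its regulator SREBP1, stood at -0.31 (-0.89 to 0.26). Elovl2, which elongates polyunsaturated fatty acids, had 400.1, 455 and 426 CPM with PaPE-1 and 693, 724 and 596 CPM with E2 (-0.65, SE 0.19), without overlap. The cholesterol synthesis genes Idi1 (-1.50, SE 0.48) and Hmgcs1 (-0.96, SE 0.37) were also below 0, with groups that did not overlap.

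Cfd, which encodes the adipocyte protein adipsin, had 3.64, 7.29 and 8.98 CPM with PaPE-1, against 0.0904, 3.20 and 0.0514 CPM with E2 and 11.5, 13.4 and 9.70 CPM with vehicle. In WE3 and WE18 it was almost absent, whereas WE14 stood near the lowest PaPE-1 liver. The difference was 2.56 (SE 1.01, adjusted p = 0.267 in edgeR), and without WE14 it was 6.40 (adjusted p = 0.000454). The 10 adipocyte markers, 5 of which were tested and all 5 above 0, summed to 55.3 to 123 CPM with PaPE-1, 52.3 to 68.7 CPM with E2 and 96.0 to 111 CPM with vehicle, with Plin1 at 0 counts in every library, and their part in the result was not tested.

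Genes of mitochondrial respiration and of ribosomes were above 0 almost without exception. All 37 complex I subunits tested and all 42 genes of complexes II to V were above 0, with medians of 0.41 and 0.38, and 22 and 21 of them were higher by the unadjusted p (below 0.05), with 0 lower. Of 82 cytosolic ribosomal protein genes 75 were higher and 0 lower, with a median of 0.53, and of 78 mitochondrial ribosomal protein genes 37 were higher and 0 lower, with a median of 0.33. Among the genes the study assayed, Cox4i1, a subunit of cytochrome c oxidase, had 576, 459.8 and 543 CPM with PaPE-1, against 278, 434 and 330.4 CPM with E2 and 353, 327 and 360.4 CPM with vehicle. The PaPE-1 livers were above all others, with WE14 the nearest, and the difference was 0.60 (SE 0.17, adjusted p = 0.184 in edgeR). Ndufa2 (0.66, SE 0.19) and Ndufb4 (0.56, SE 0.21), subunits of complex I, the electron transfer flavoprotein gene Etfb (0.54, SE 0.16) and the ferredoxin gene Fdx1 (0.62, SE 0.17) also had groups that did not overlap. The prohibitin gene Phb (0.36, SE 0.17), the cytochrome c gene Cycs (0.24, SE 0.21) and the outer membrane channel gene Vdac1 (0.09, SE 0.15) had groups that did. The chaperonin gene Hspd1 stood at 0.27 (SE 0.14), with groups that did not overlap. The study measured the products of Cox4i1, Phb, Cycs, Vdac1 and Hspd1 as protein, whereas the values here are of RNA. Rps9 (0.73, SE 0.17) and Rplp2 (0.91, SE 0.22) were the ribosomal genes with the smallest p.

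These lists hold short genes, and short genes in general lay above 0. When the genes tested were divided by length into 5 classes of like size, the median log2 fold change of PaPE-1 over E2 was 0.25 in the shortest class (60 to 1879 nt) and then 0.09, -0.04, -0.13 and -0.21 up to the longest (6809 to 114472 nt). By the unadjusted p (below 0.05), 646 genes of the shortest class were higher and 71 lower, against 43 and 499 in the longest. The shortest class stood at 0.31, 0.19 and 0.23 on the mean log2 scale in WP11, WP12 and WP24, set against vehicle, and at -0.15, 0.20 and 0.07 in WE3, WE14 and WE18, so WE3 had the opposite trend and WE14 lay within the PaPE-1 range. With each library's trend removed, the medians were 0.17 for complex I, 0.18 for complexes II to V, 0.28 for cytosolic and 0.19 for mitochondrial ribosomes, against 0.03 over all genes. The counts of genes higher by the unadjusted p were then 5 of 37, 5 of 42, 35 of 82 and 18 of 78, with 0 lower in each. Over all 13884 genes tested, 1094 were then higher and 714 lower. Fatty acid oxidation kept 15 higher and 0 lower. With the trend removed, Cox4i1 stood at 0.32, Ndufa2 at 0.37, Ndufb4 at 0.25, Etfb at 0.28 and Hspd1 at 0.24. Fdx1, a longer gene of 3441 nt, stood at 0.66. RNA quality is not given in the sources used here, and its part in the trend was not tested.

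**Figure D4:**
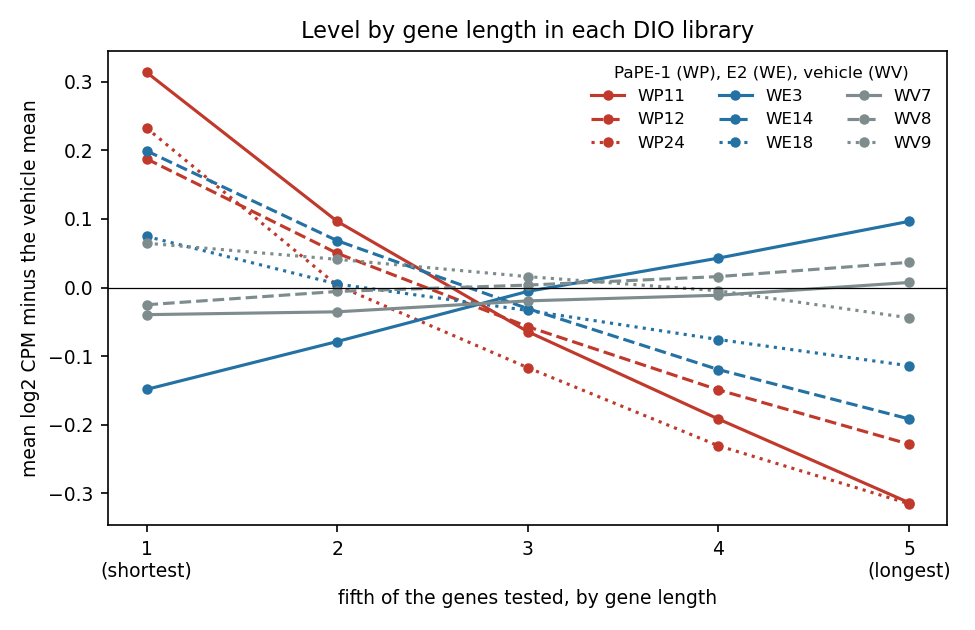
Mean log2 CPM minus the vehicle mean (vertical axis) of the genes tested in 5 classes by gene length, from the shortest to the longest (horizontal axis), with a line for each PaPE-1, E2 and vehicle library. The PaPE-1 lines fall from between 0.19 and 0.31 to between -0.32 and -0.23, whereas WE3 runs the other way and WE14 falls as the PaPE-1 lines do.

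Genes of mitosis and DNA replication were mostly below 0 with PaPE-1. Of 48 tested, 40 were below 0, with a median of -0.44, and 10 were lower and 2 higher by the unadjusted p (below 0.05), and in 18 (37.5%, beside 8.27% of all genes) all PaPE-1 livers lay below all E2 livers. Apart from Mki67, the chromatin remodeller gene Hells had 0.239, 0.486 and 0.270 CPM with PaPE-1, 1.27, 0.954 and 1.23 CPM with E2 and 1.82, 0.873 and 1.12 CPM with vehicle (-1.74, SE 0.43), and the cytokinesis gene Prc1 had 0.119, 0.340 and 0.270 CPM with PaPE-1 and 0.588, 0.525 and 0.874 CPM with E2 (-1.39, SE 0.45). For both the PaPE-1 livers were below all others. These are low levels, at which counting error is large. With only the genes that had at least 10 counts in every library, the median of the list was -0.15.

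The lists of matrix genes and of endothelial, Kupffer cell and lymphocyte markers had medians below 0, whereas those of adipocyte (0.30, 5 genes) and erythroid markers (0.35, 7 genes) were above 0. Of 47 collagen, laminin and other matrix genes, 9 were lower and 0 higher by the unadjusted p, with a median of -0.19 that became -0.04 once the length trend was removed. Col4a1, a chain of basement membrane collagen, had 21.2, 28.2 and 19.8 CPM with PaPE-1, against 42.9, 32.9 and 31.9 CPM with E2 and 46.2, 41.0 and 44.2 CPM with vehicle. The PaPE-1 livers were below all others, with a difference of -0.63 (SE 0.17, adjusted p = 0.175 in edgeR). Col15a1 had 9.61, 9.97 and 11.5 CPM with PaPE-1 and 16.01, 16.03 and 15.3 CPM with E2 (-0.61, SE 0.18). The proteoglycan gene Lum stood at -0.85 (SE 0.22). With the length trend removed, Col4a1 stood at -0.43, Col15a1 at -0.46 and Lum at -0.96. Col5a3 had 6.51, 12.4 and 6.28 CPM with PaPE-1, 6.96, 13.9 and 6.32 CPM with E2 and 21.6, 21.9 and 20.5 CPM with vehicle, so both ligands lay below vehicle and the difference between them was -0.10 (95% interval -0.82 to 0.62). The glutathione transferase gene Gsta1 likewise had 0.597, 0.438 and 0 CPM with PaPE-1 and 0.316, 0.668 and 0.154 CPM with E2, against 1.87, 1.18 and 2.62 CPM with vehicle, at -0.09 (-1.74 to 1.56).

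Of 25 endothelial markers 6 were lower and 0 higher by the unadjusted p, of 21 Kupffer cell markers 6 and 2, and of 19 lymphocyte markers 5 and 0, beside 8.62% lower and 8.41% higher over all genes tested. The endothelial list summed to 582 to 607 CPM with PaPE-1, 611 to 813 CPM with E2 and 574 to 646 CPM with vehicle. The Kupffer cell list summed to 808 to 1183 CPM with PaPE-1, 1153 to 1575 CPM with E2 and 867 to 1171 CPM with vehicle, and the lymphocyte list to 32.2 to 57.5, 70.7 to 78.2 and 54.4 to 74.0 CPM in the same order. WE3 had the highest sum of each of these lists. The endothelial cadherin gene Cdh5 had 14.1, 16.1 and 17.8 CPM with PaPE-1 and 40.1, 22.0 and 25.2 CPM with E2 (-0.86, SE 0.20). The macrophage genes Adgre1, which encodes F4/80, and Csf1r stood at -0.88 (SE 0.21) and -0.72 (SE 0.18). Of the Kupffer cell markers 15 were below 0 and 6 above, and the 2 higher ones are not named here. Mean log2 levels of that list overlapped, at 0.29, -0.45 and 0.08 with PaPE-1 and 0.50, 0.01 and 0.07 with E2, set against vehicle. Of 16 stellate cell markers 3 were lower and 0 higher by the unadjusted p, with a median of -0.16. Their sums overlapped, at 378 to 430 CPM with PaPE-1, 391 to 420 CPM with E2 and 378 to 395 CPM with vehicle. The part of all these cells in the matrix and interferon values was not tested. Of 35 interferon response genes 28 were below 0 and 11 were lower and 0 higher, with a median of -0.38. Stat2, a transcription factor of interferon signalling, had 49.7, 41.5 and 37.3 CPM with PaPE-1, against 77.7, 61.6 and 77.2 CPM with E2 and 51.0, 62.0 and 64.8 CPM with vehicle (-0.75, SE 0.15).

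**Figure D5:**
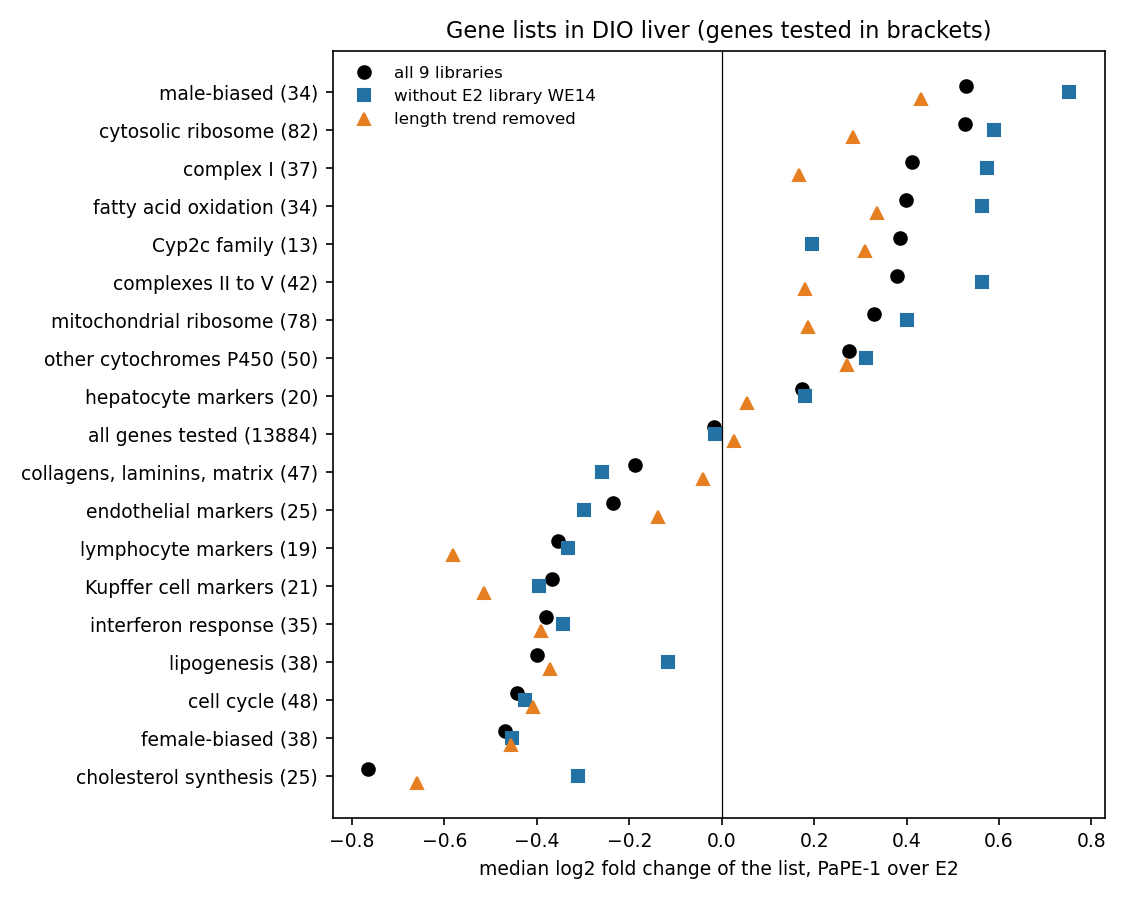
Median log2 fold change of PaPE-1 over E2 (horizontal axis) for 18 gene lists and all genes tested (rows), with the number of genes tested in brackets, over all 9 libraries (black), without WE14 (blue) and with the gene length trend removed (orange). Medians run from -0.77 for cholesterol synthesis to 0.53 for the male-biased list, the respiratory and ribosomal medians lie nearer to 0 once the length trend is removed, and those of lipid synthesis lie nearer to 0 without WE14.

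The last comparison asked whether PaPE-1 and E2 differed in the same way in both obesity models. The difference of PaPE-1 minus E2 in DIO liver was higher than that in ob/ob liver for 899 of 14171 genes (6.34%) and lower for 1076 (7.59%) at an adjusted p under 0.05 in edgeR's test of the interaction over 18 libraries. With the length trend removed the counts were 254 and 298, and with 1 library left out they were 239 to 1578 and 313 to 1689, the highest without WE14. Only the difference within each model enters. Leptin genotype, diet and any difference in handling of the animals or preparation of the libraries cannot be told apart between the models. Total counts were also lower in the ob/ob libraries, at 10470665 to 17021370, against 16651616 to 21703791 in the DIO libraries. Prox1os, at 1.09 in DIO liver, stood at -0.11 in ob/ob liver, and Mki67, at -1.53 in DIO liver, at 0.31. Prox1os (831 nt) is in the shortest class of genes by length and Mki67 (10257 nt) in the longest. With the length trend removed they stood at 0.80 and -1.32 in DIO liver, and neither passed the adjusted threshold. The part of length in their interaction was not tested. Mup3 was at 1.30 in DIO and -1.43 in ob/ob liver, and Cyp2e1 at 0.95 and -0.84, so both had opposite signs in the models. For Sult2a7, Cyp2c50 and Dct the ob/ob values were 0.10, 0.07 and -1.30, and the interaction did not pass (adjusted p = 0.152, 0.354 and 0.369 in edgeR). Among the female-biased decreases the ob/ob values were -3.88 for A1bg and -3.40 for Cyp3a16, but -0.14 for Prom1 and -0.06 for Cyp17a1, for which the interaction passed (adjusted p = 0.0151 in edgeR). The median of the female-biased list was -0.76 in ob/ob liver, against -0.47 in DIO liver. That of the male-biased list was -0.07 in ob/ob liver, against 0.53 in DIO liver, and that of the Cyp2c list -0.40 against 0.39. The median of the cytosolic ribosomal list was -0.36 there, against 0.53 in DIO liver. Of its 82 genes 76 passed the interaction, beside 1959 of the 13884 genes tested in DIO liver. These are short genes, and the median of the shortest class of genes was 0.25 in DIO and -0.22 in ob/ob liver. The part of gene length in this count was not tested.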

How the data were processed

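Liver polyA RNA was sequenced as stranded libraries. Per the file headers and processing notes, the authors aligned reads with STAR (version 2.7.6a) to GRCm39 and counted uniquely placed reads by strand with featureCounts (version 2.0.0), and these deposited gene counts were used unchanged. The 36 columns of normalized counts and the 4 tables of the authors' own fold changes and p-values were not used. Genes were kept by filterByExpr and scaled by TMM, and edgeR (version 4.0.16, R 4.3.3) fitted a robust quasi-likelihood model with a mean per group over the 9 DIO libraries, with Benjamini-Hochberg adjustment over all genes tested. The interaction was fitted over 18 libraries. The libraries are described as biological replicates. The sample records speak of 2 sequenced per group, whereas 3 libraries per group are listed and were used, so each was taken as 1 liver. With 3 livers per group no exact permutation test could pass. Intervals are 95% intervals of the fit.

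Named genes were those past an adjusted p of 0.05, the 12 largest differences in each direction (unadjusted p under 0.01, a group mean of at least 1 CPM, groups without overlap, a gene symbol beyond an identifier), the members of each described list with the smallest p (at most 4), genes the study assayed, the estrogen receptor genes and relatives that share reads. Not every gene that this rule names is reported here. The members and lists were chosen with earlier results of these data known. No pair of the DIO libraries held identical counts. Alternatives were DESeq2 (version 1.42.0) size factors and its Wald test, limma voom (version 3.58.1), other count filters, only the groups compared, no robust estimation, removal of each library's trend on gene length (loess, span 0.5) and each library left out. The fits were tested on simulated data. Figures were drawn with matplotlib 3.10.9.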

Additional observations from a re-analysis of the deposited data

Results flagged for a closer look

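For 25 of the 83 genes named in the report, the difference of PaPE-1 minus E2 departed between DIO and ob/ob liver. The test was edgeR's test of the interaction (adjusted p under 0.05, 3 livers in each of the groups). Over all genes tested, 6.34% were higher and 7.59% lower by the same test. Many of the 83 were named for their difference in the DIO libraries that also enter the interaction. The share of named genes is therefore raised by their choice and is not separate support. The values here are the log2 difference in DIO liver minus that in ob/ob liver, so a positive value means that PaPE-1 over E2 was greater in DIO liver. Among the genes called in DIO liver the value was 1.20 for Prox1os and -1.84 for Mki67. Among cytochromes P450 and other genes of steroid handling it was 1.79 for Cyp2e1, 0.78 for Cyp2c67, 1.17 for Cyp2d10, -1.92 for Cyp17a1 and -3.74 for Sult1e1. Mup3 stood at 2.73, Agt at 1.01, Ccnd1 at -1.49 and Elovl2 at -0.97.

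Genes of respiration and the ribosome were positive, with 0.79 for Cox4i1, 0.84 for Etfb, 0.88 for Ndufa2, 1.10 for Ndufb4, 1.05 for Rps9 and 1.24 for Rplp2. The gene length trend ran the opposite way in ob/ob liver, where the median of PaPE-1 minus E2 was -0.22 in the shortest class of genes by length and 0.17 in the longest, and its part in these values was not tested gene by gene. The cell cycle genes Hells and Prc1 were negative, at -3.07 and -1.85. Hells (11650 nt) and Mki67 are in the longest class of genes and Prox1os in the shortest. The part of length in their values was likewise not tested. Of the remaining genes, Tpm2 stood at 1.97, Dio3os at 2.44, Ccl22 at 3.27, Phlda1 at 1.89, Sybu at -2.08 and Gdap10 at -5.55. The value of Gdap10 (SE 1.29) rests on almost no reads in DIO liver, with 0.119, 0.0972 and 0 CPM under PaPE-1, so its size is uncertain. Ccl22 was also at a low level.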

How the results depend on the processing

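With all libraries edgeR called 3 higher and 2 lower genes. The DESeq2 Wald test called 126 higher and 112 lower, and limma voom 0 and 0, with 1213 and 1066 at an unadjusted p under 0.05. Without a filter on low counts edgeR called 29 and 27, with only the groups compared 1 and 1, and with the length trend removed 1 and 0. Leaving out 1 library gave between 0 and 361 higher genes and between 0 and 435 lower ones, with the top of both ranges without WE14. The genes past a fold of 2 at an unadjusted p under 0.05 numbered 200 higher and 398 lower without the filter, 44 and 91 with at least 10 counts in every library, and 78 to 271 and 177 to 340 with 1 library left out, again highest without WE14. The interaction gave 445 and 552 with only the groups compared, 254 and 298 with the length trend removed, and 239 to 1578 and 313 to 1689 with 1 library left out. Its counts were 1578 and 1689 without WE14, 342 and 427 without WE3, 597 and 694 without WP11, 273 and 313 without ob/ob E2 replicate 2, 528 and 602 without ob/ob E2 replicate 3, and 239 and 327 without ob/ob PaPE-1 replicate 3. The cause was not tested.

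No paired analysis was possible because the labels do not pair livers across the groups. A1bg missed the threshold at -5.53 (SE 1.08) with WE14 far from the other E2 livers. Mki67 rests on 20 to 28 counts in the PaPE-1 livers.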
